A study of Mus musculus with 20 samples.

Results

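In this series, 4 mature microRNAs (miRNAs) that mark blood-derived white cells were followed in the mouse ascending aorta: mmu-miR-142a-3p and mmu-miR-142a-5p, the 2 arms of a hairpin made in nearly all blood-forming lineages, mmu-miR-150-5p of mature lymphocytes, and mmu-miR-223-3p of myeloid cells. The prefix for mouse is left off from here on. They were picked as known white cell miRNAs, with earlier results of these data known, and found on the array by name alone. They are 4 of the 1881 mature mouse miRNAs on the array. Total RNA from the aortic segment that carries the atherosclerotic lesion was measured on 20 single-colour (Cy3) Agilent miRNA arrays. Every animal was male and carried the genotype given as Apobtm2Sgy/Ldltm1Her, with both genes altered, so no group has both genes intact. The 7 groups were week 0 on chow (2 arrays) and, after 6, 18 and 30 weeks of feeding, either diet, chow or high fat (3 arrays per diet and week). The labels give the week on diet and no other age, and they do not say whether an array holds 1 animal or a pool. Replicates are separate by label only, so each p-value measures the spread between these arrays, which may be technical. The aorta was measured as whole tissue, so fewer white cells and less of a miRNA per white cell cannot be told apart in any value given here.

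A miRNA guides a silencing complex to messenger RNAs that pair with its seed, bases 2 to 8 from its 5′ end. The miR-142 hairpin is processed into 2 abundant arms and is expressed in lymphoid and myeloid cells alike. miR-150 rises as B and T lymphocytes mature and targets the transcription factor Myb, and miR-223 is abundant in neutrophils and monocytes and limits granulocyte production. An atherosclerotic lesion gathers monocyte-derived macrophages and lymphocytes, so the 3 loci give separate views of the white cell RNA in the artery wall.

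The mature sequences show that the measured miRNAs are distinct molecules. Capitals mark the seed in these RefSeq sequences, with positions on assembly GRCm38.p6.
miR-142a-3p: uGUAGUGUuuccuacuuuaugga
miR-142a-5p: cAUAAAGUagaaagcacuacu
miR-223-3p: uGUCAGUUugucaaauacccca
The RefSeq table held 3 of the 4 by name. The 3p arm of miR-142a lies at chr11:87756903-87756925 and the 5p arm at chr11:87756867-87756887, both on the plus strand. miR-223-3p lies at chrX:96242884-96242905, also on the plus strand, in a hairpin of 110 bases that overlaps the long non-coding RNA gene F630028O10Rik. The 3 seeds differ from one another, and 0 others among the 1679 mature mouse miRNAs listed there share any of them.

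The hairpin shows how both miR-142a arms come from 1 precursor of 64 bases, at chr11:87756864-87756927 on the plus strand, with the arms in capitals and 15 bases between them.
Mir142 hairpin: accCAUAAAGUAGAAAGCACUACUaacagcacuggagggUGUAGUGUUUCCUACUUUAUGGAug
A hairpin named Mir142b is annotated on the opposite strand of the same site, and all 20 bases of its mature product are complementary to miR-142a-3p. The miR-142b probes were well above background on 0 of 20 arrays.

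Each miRNA was read by 2 DNA probes that pair with it, with 15 spots per probe. The longer probes of miR-142a-3p and miR-223-3p are shown, with a capital for the 1 base that the shorter probe lacks.
miR-142a-3p probe: tccataaagtaggaaacactacA
miR-223-3p probe: tggggtatttgacaaactgaC
The longer probe was brighter by 2.26-fold for miR-142a-3p, 2.95-fold for miR-223-3p and 3.06-fold for miR-150-5p. For miR-142a-5p it was the shorter probe, by 1.01-fold. Over the arrays the 2 probes of a miRNA correlated at r = 0.9992, 0.996, 0.996 and 0.993 in that order, as a description. Signal depends on the probe, so the level of one miRNA is not set against that of another.

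Levels are log2 intensities scaled to each array's 75th percentile, on which a step of 1 is a doubling and 3.09 is the common floor. Arrays detected 316 to 742 miRNAs. The 4 with fewest (at most 355, against at least 412 on the others) were the first replicates of week 18 chow and week 30 high fat and the third replicates of the high fat groups at weeks 6 and 18. Weeks 0 and 6 shared slide 1, the week 30 chow and week 18 arrays lay on slide 2 except week 18 high fat replicate 3, and that array lay with the week 30 high fat arrays on slide 3. The slide therefore cannot be told apart from the group in the steps from week 6 to 18 or in the diet comparison at week 30. From week 18 to 30 on high fat, only week 18 high fat replicate 3 shares a slide with the week 30 arrays. Replicates 1 and 2 of week 6 chow, and replicates 2 and 3 of week 30 high fat, were nearly identical (SD of their log2 differences 0.28 and 0.18, where same-group pairs sharing a slide had a median of 0.95). Replicate 3 of week 18 high fat was as close to replicate 2 of week 30 high fat (0.19), an array of another group. Smooth muscle miRNAs, which mark the arterial wall, were present on every array, with a summed level of 10.09 to 11.37.

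miR-142a-3p, which was well above background on 18 of 20 arrays, had the widest range of the 4 over arrays and over group means. At week 0 its levels were 7.26 and 9.25. On chow they were 11.17, 11.35 and 10.79 at week 6, then 4.95, 7.43 and 8.48 at week 18 (the first not well above background), and 7.41, 7.33 and 7.26 at week 30. On high fat diet they were 8.05, 11.10 and 11.70 at week 6, then 8.89, 7.73 and 6.35 at week 18, and 3.09 (the floor), 5.97 and 5.70 at week 30. The 3 week 6 chow arrays lay above every array of weeks 0, 18 and 30 on either diet, and 2 of the 3 week 6 high fat arrays lay with them. Group means ran from 11.10 ± 0.28 (SD, n = 3) at week 6 on chow through 10.28 ± 1.96 at week 6 on high fat, 8.26 ± 1.40 (n = 2) at week 0, 7.65 ± 1.27 at week 18 on high fat, 7.33 ± 0.07 at week 30 on chow and 6.95 ± 1.81 at week 18 on chow to 4.92 ± 1.59 at week 30 on high fat. Neighbours in that order were closer than the larger of their SDs, except week 6 high fat against week 0 (1.03 SD) and week 18 chow against week 30 high fat (1.12 SD).

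miR-142a-5p, the other arm, was well above background on 16 of 20 arrays and kept the same order of groups. Its levels were 4.70 and 6.90 at week 0. They were 8.78, 9.01 and 8.33 at week 6 on chow, and 6.15, 9.24 and 8.84 at week 6 on high fat. The later groups lay lower, from the floor to 6.48, with means of 4.85 ± 1.70 and 5.03 ± 0.19 on chow and 5.04 ± 1.74 and 3.28 ± 0.33 on high fat at weeks 18 and 30. Only week 6 high fat and week 0 differed by more than the larger SD among its neighbours (1.35 SD). The 5p arm was at the floor on 4 arrays (replicate 1 of week 18 chow, replicate 3 of week 18 high fat, and replicates 1 and 3 of week 30 high fat), of which 3 were among the 4 arrays with fewest detected miRNAs.

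miR-150-5p, the lymphocyte miRNA, was well above background on all 20 arrays with means of 6.27 to 8.76 over the groups. Its group SDs ran from 0.30 to 0.56 on chow at weeks 6, 18 and 30, and from 1.79 to 2.43 on high fat and at week 0. Levels were 7.01 and 9.84 at week 0, then 8.24, 8.30 and 7.75 on chow against 6.82, 9.11 and 10.36 on high fat at week 6. At week 18 they were 7.83, 6.70 and 7.21 on chow and 10.28, 6.96 and 5.56 on high fat, and at week 30 they were 6.85, 5.94 and 6.40 on chow and 8.39, 5.25 and 5.17 on high fat. Every high fat group held both a value above and a value below its chow group, so the diets overlapped at every week. The only neighbours in the order of means that lay more than the larger SD apart were week 18 chow (7.25 ± 0.56) and week 30 chow (6.40 ± 0.46), at 1.51 SD.

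miR-223-3p, the myeloid miRNA, was well above background on all 20 arrays and had the narrowest range of the 4. Its arrays spanned 3.11, against 8.61, 6.15 and 5.19 for miR-142a-3p, miR-142a-5p and miR-150-5p. Levels were 8.34 and 8.20 at week 0, then 7.93, 8.14 and 7.70 on chow against 6.93, 8.77 and 9.58 on high fat at week 6. At week 18 they were 6.87, 7.56 and 7.70 on chow and 8.65, 7.49 and 7.11 on high fat. At week 30 they were 7.72, 7.08 and 7.08 on chow and 6.47, 6.87 and 6.64 on high fat, and there the diets did not overlap. In the order of means, week 0 lay 1.57 SD above week 6 chow and week 30 chow 1.72 SD above week 30 high fat, by the larger SD, and the other neighbours lay within it.

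**Figure D1:**
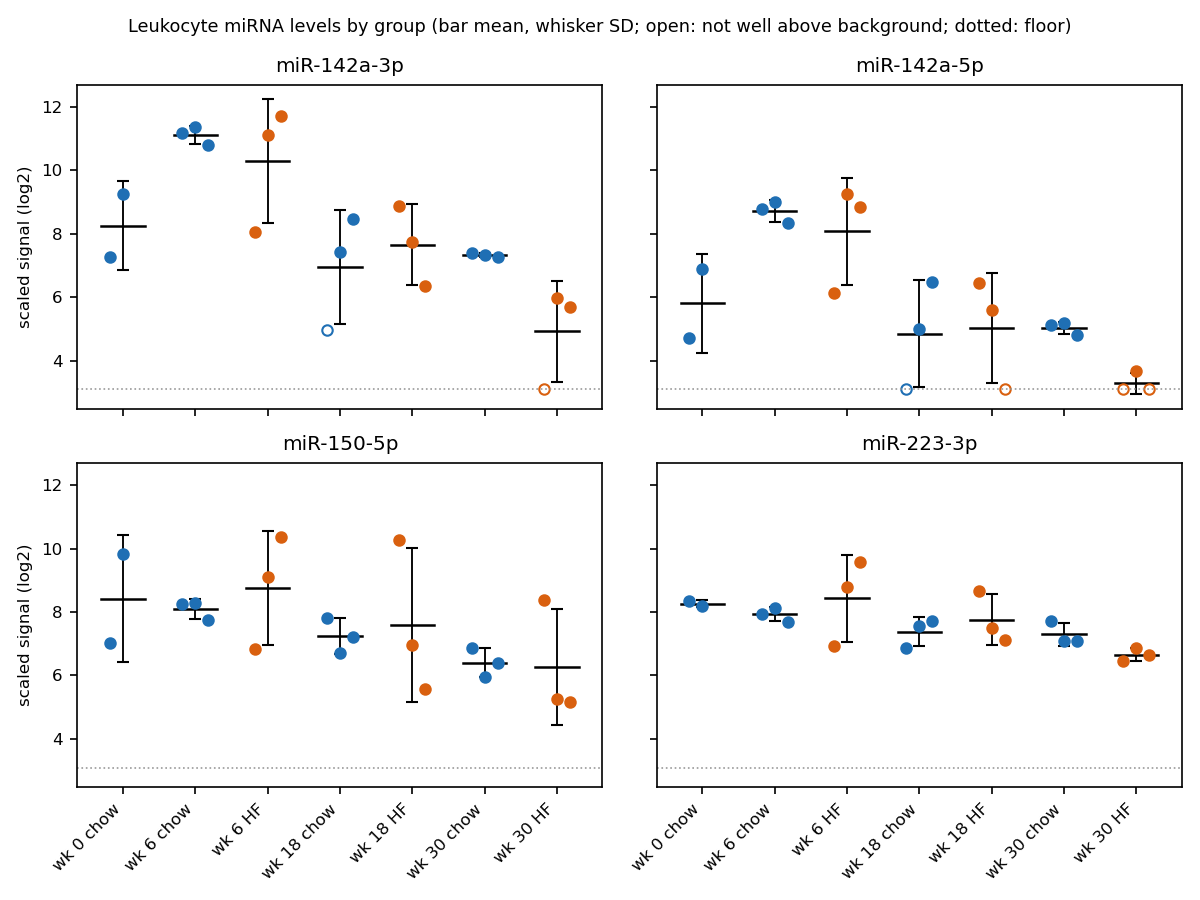
Log2 scaled intensity (vertical axis) of each of the 4 miRNAs on every array, by group (horizontal axis), with a bar for each group mean and a whisker for its SD. Blue is chow, orange is high fat, and open points were not well above background. All 4 have their highest mean at week 6, on chow for both arms of miR-142a (11.10 and 8.71) and on high fat for miR-150-5p (8.76) and miR-223-3p (8.43).

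On chow, both arms of miR-142a fell between weeks 6 and 18, and the lymphocyte and myeloid miRNAs did not pass the test. miR-142a-3p fell by 4.15 on the log2 scale (SE 1.02, 17.8-fold, limma adjusted p = 0.00952) and miR-142a-5p fell by 3.86 (SE 0.93, 14.5-fold, limma adjusted p = 0.00867). All 3 week 6 arrays lay above all 3 week 18 arrays for both arms. The difference was -0.85 (95% interval -3.20 to 1.51) for miR-150-5p and -0.54 (-1.70 to 0.61) for miR-223-3p, with limma adjusted p = 0.649 and 0.560. So 2 of 4 passed, both lower, against 16.4% of the 609 miRNAs tested, all lower. Groups that did not overlap, with week 18 lower, made up 33.3% of the 609. The median difference was -2.35 over the 4 and -0.16 over all tested. Each probe alone gave a similar miR-142a-3p difference, -4.11 and -4.27. The call ended for both arms without week 18 chow replicate 1 (-3.15, limma adjusted p = 0.0597, and -2.98, limma adjusted p = 0.0565), and for miR-142a-5p when nearly identical arrays were averaged (-3.76, limma adjusted p = 0.0526). The description and the file of 8 arrays disagree on the slide position, and reading the groups by the description's position changes the diet of 2 arrays and ends the miR-142a-3p call (-2.84, limma adjusted p = 0.0534).

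From week 0 to week 6 on chow, which share a slide, both arms lay higher at week 6 on every array, without passing the test. The differences were 2.85 for miR-142a-3p (SE 1.14, limma adjusted p = 0.0888) and 2.91 for miR-142a-5p (SE 1.04, limma adjusted p = 0.0556). This step passed for 20.4% of the 609 miRNAs (20.2% higher), and 50.6% lay wholly higher at week 6, so a higher level on every array is common here. The arms passed under some other settings (miR-142a-5p with the slide as a block, 2.91, limma adjusted p = 0.0335). miR-150-5p differed by -0.33 and miR-223-3p by -0.35, and the week 6 values of miR-223-3p lay wholly below its 2 week 0 values, as did 12.3% of the 609. From week 18 to 30 on chow, 0 of the 4 and 0% of the 609 passed limma's threshold (5 had an unadjusted p under 0.05). The differences there were 0.38, 0.18, -0.85 and -0.09 for miR-142a-3p, miR-142a-5p, miR-150-5p and miR-223-3p.

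On high fat diet none of the 4 passed limma's threshold in any step, and neither did any other miRNA (0% in each step). Both arms again had higher means at week 6 than at week 0 on chow, by 2.03 and 2.28 (limma adjusted p = 0.530 for each). From week 6 to week 18 they differed by -2.63 (SE 1.02, unadjusted p = 0.0189) and -3.04 (SE 0.93, unadjusted p = 0.0045), with a limma adjusted p of 0.472 for each. These 2 were among 61 miRNAs with an unadjusted p under 0.05 in that step, and 45 had one in the step from week 0 to 6. From week 18 to 30 the difference was -2.73 for miR-142a-3p (SE 1.02, limma adjusted p = 0.809) and -1.09 for miR-223-3p (SE 0.55, limma adjusted p = 0.809). Without week 18 high fat replicate 3, the array close to one of week 30, these were -3.38 and -1.41. The step then cannot be told apart from the slide. On slide 3 that array stood at 6.35 for miR-142a-3p and 7.11 for miR-223-3p, against week 30 means of 4.92 and 6.66. The week 30 arrays lay wholly below the week 18 arrays for these 2 of the 4, against 4.43% of the 609, and 18 miRNAs had an unadjusted p under 0.05. The other 2 overlapped, at -1.76 for miR-142a-5p and -1.33 for miR-150-5p.

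Between the diets, none of the 4 passed limma's threshold at any week. At week 6 the high fat minus chow difference was -0.82 for miR-142a-3p (SE 1.02, limma adjusted p = 0.861), -0.63 for miR-142a-5p, 0.67 for miR-150-5p and 0.51 for miR-223-3p, against 2.96% of the 609 passing. The diets overlapped there for all 4, whereas 15.9% of the 609 did not overlap. At week 18 the differences were 0.70, 0.19, 0.35 and 0.37, with 0% of the 609 passing and 7 at an unadjusted p under 0.05. At week 30, miR-142a-3p differed by -2.41 (SE 1.02, limma adjusted p = 0.252), miR-142a-5p by -1.75 (SE 0.93, limma adjusted p = 0.285), miR-223-3p by -0.63 and miR-150-5p by -0.13. The miR-142a-3p value was -1.49 without week 30 high fat replicate 1, where it is at the floor, and -2.93 without replicate 2. At that week 0% of the 609 passed and 112 had an unadjusted p under 0.05, miR-142a-3p among them (0.0296). The high fat arrays lay wholly below the chow arrays for 3 of the 4 (not miR-150-5p), against 25.5% of the 609. For miR-142a-5p, high fat replicates 1 and 3 are at the floor there.

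At week 30 the direction of 3 of the 4 turned with the slide as a block, estimated through the week 18 high fat group and its replicate 3 on slide 3. The negative control spots of that array had an SD of 22.32, against at most 2.53 on the other arrays, so the block rests on 1 noisy array. With the block the week 30 difference was -0.45 for miR-142a-3p (SE 1.80) and turned to 1.17 for miR-142a-5p, 2.93 for miR-150-5p and 0.33 for miR-223-3p. As a mean over the 3 weeks, the diet differences were -0.84 (SE 0.59), -0.73 (SE 0.54), 0.30 (SE 0.64) and 0.08 (SE 0.32) for miR-142a-3p, miR-142a-5p, miR-150-5p and miR-223-3p. None of the 4 passed limma's threshold, as 0.164% of the 609 did. Nor did the diet effect of any of the 4 change over time by limma's F test (adjusted p = 0.529, 0.665, 0.919 and 0.612), a test that 0.985% of the 609 passed.

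**Figure D2:**
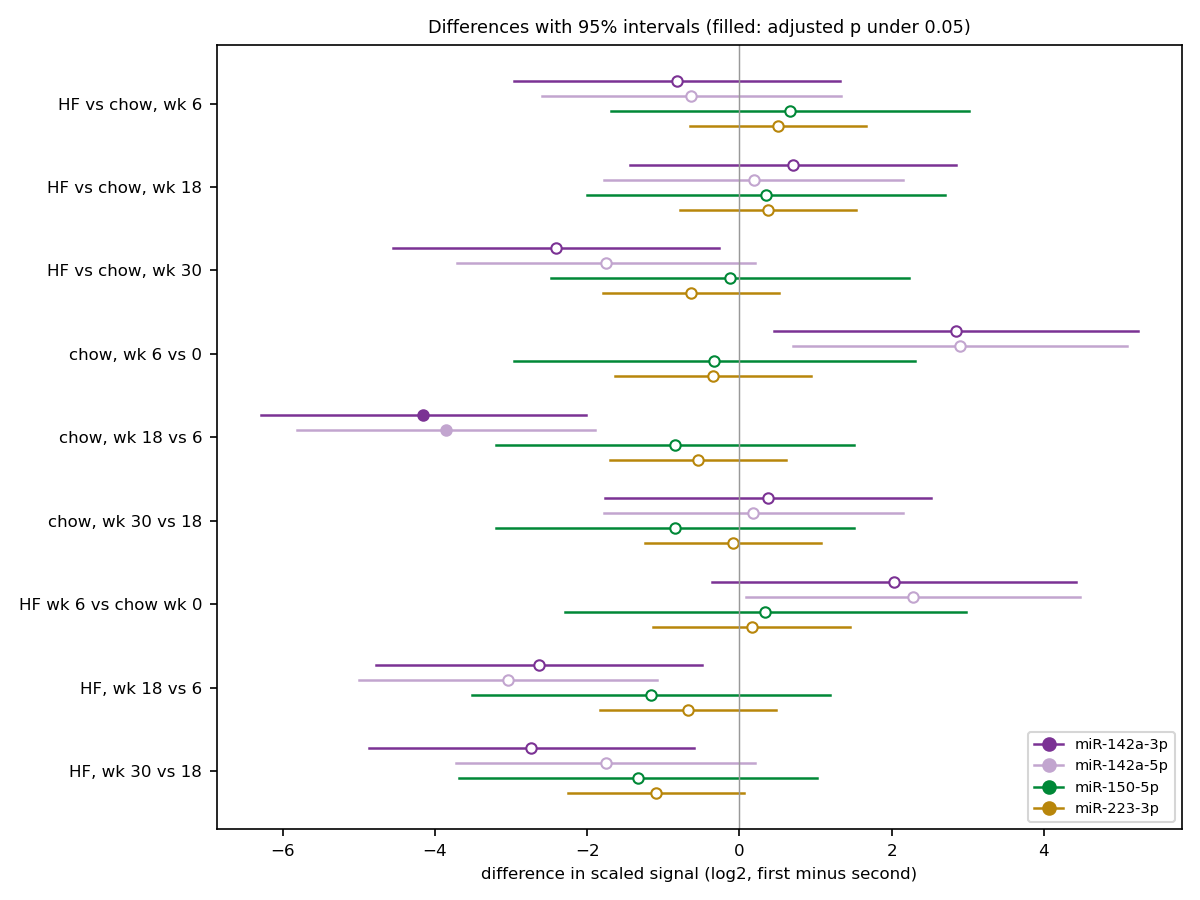
Log2 difference with its 95% interval (horizontal axis) for each of the 4 miRNAs in 9 comparisons of 2 groups (vertical axis, HF for high fat). Filled points passed limma's adjusted threshold and open points did not. The filled points are the 2 arms of miR-142a between weeks 6 and 18 on chow, at -4.15 and -3.86.

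Whether miR-142a moved apart from the lineage miRNAs was tested on ratios within an array, in which the array's scaling cancels unless a miRNA is at the floor. The log2 ratio of miR-142a-3p to miR-223-3p was -1.07 and 1.05 at week 0. It was 3.24, 3.21 and 3.09 at week 6 on chow, and 1.12, 2.33 and 2.12 at week 6 on high fat. It was -1.92, -0.14 and 0.77 at week 18 on chow, 0.24, 0.23 and -0.76 at week 18 on high fat, and -0.31, 0.25 and 0.18 at week 30 on chow. At week 30 on high fat it was -3.38 (with miR-142a-3p at the floor), -0.89 and -0.94. Every week 6 array therefore lay above every array of the other weeks, and within week 6 the chow arrays lay above the high fat arrays. The zero of a ratio depends on the probes, so only its changes are read.

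The ratio of miR-142a-3p to miR-150-5p also had its highest values at week 6 on chow. There it was 2.93, 3.05 and 3.04, against 1.23, 1.997 and 1.34 on high fat, and 0.26 and -0.59 at week 0. Later values reached at most 1.39, on week 30 chow replicate 2. The lowest was -5.30 on week 30 high fat replicate 1, with miR-142a-3p at the floor, where miR-150-5p stood at 8.39, the highest of its group.

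Between weeks 6 and 18, the miR-142a-3p to miR-223-3p ratio fell by 2.78 on the log2 scale over both diets (-3.61 on chow and -1.95 on high fat). Its ratio to miR-150-5p fell by 2.39 (-3.30 and -1.47). Each had an exact 2-sided permutation p of 0.005, the smallest that the 400 assignments within diets allow, and an adjusted p of 0.04 over the 16 ratio tests made. Without the 4 arrays with fewest detected miRNAs the differences were -2.18 and -1.97, each with an adjusted exact permutation p of 0.0667. Fewer assignments remain there, so the smallest possible p is above 0.005. Leaving out any one of the week 6 arrays or week 18 high fat replicate 3 gave an adjusted exact permutation p of 0.08 to 0.12. The difference was -0.40 for the miR-150-5p to miR-223-3p ratio (exact permutation p = 0.47) and 0.06 for the ratio of the 2 arms of miR-142a (exact permutation p = 0.825). Away from the floor the ratios are free of array scaling, but not of the slide, which changed between these weeks.

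Within slide 1, from week 0 to 6 on chow, the same pair of ratios differed by 3.19 and 3.18, with no overlap. With 5 arrays the exact permutation p of each is 0.1, the smallest possible (adjusted p = 0.32). The miR-150-5p to miR-223-3p ratio differed by 0.02 and the ratio of the arms by -0.06 (exact permutation p = 1 and 0.6). Between the diets the ratio of miR-142a-3p to miR-223-3p differed by -0.92 over the 3 weeks (-1.33, 0.33 and -1.77 at weeks 6, 18 and 30, exact permutation p = 0.0605, adjusted p = 0.32). Its ratio to miR-150-5p differed by -1.14 (-1.49, 0.35 and -2.28, exact permutation p = 0.196, adjusted p = 0.523). Without week 18 chow replicate 1 these 2 became -1.17 and -1.57, each with an adjusted exact permutation p of 0.026. With other single arrays left out they ranged up to -0.65 and -0.48, not past the threshold. In the second ratio, week 30 high fat replicate 1 stood at -5.30, with miR-142a-3p at the floor. Replicates 2 and 3 of that group stood at 0.72 and 0.53, against 0.55 to 1.39 on chow. Between weeks 18 and 30 no ratio passed, with differences (week 30 minus week 18) of -0.59, -0.09, -0.50 and -0.39 for miR-142a-3p to miR-223-3p, miR-142a-3p to miR-150-5p, miR-150-5p to miR-223-3p and the 2 arms. The last of these holds arrays with miR-142a-5p at the floor.

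**Figure D3:**
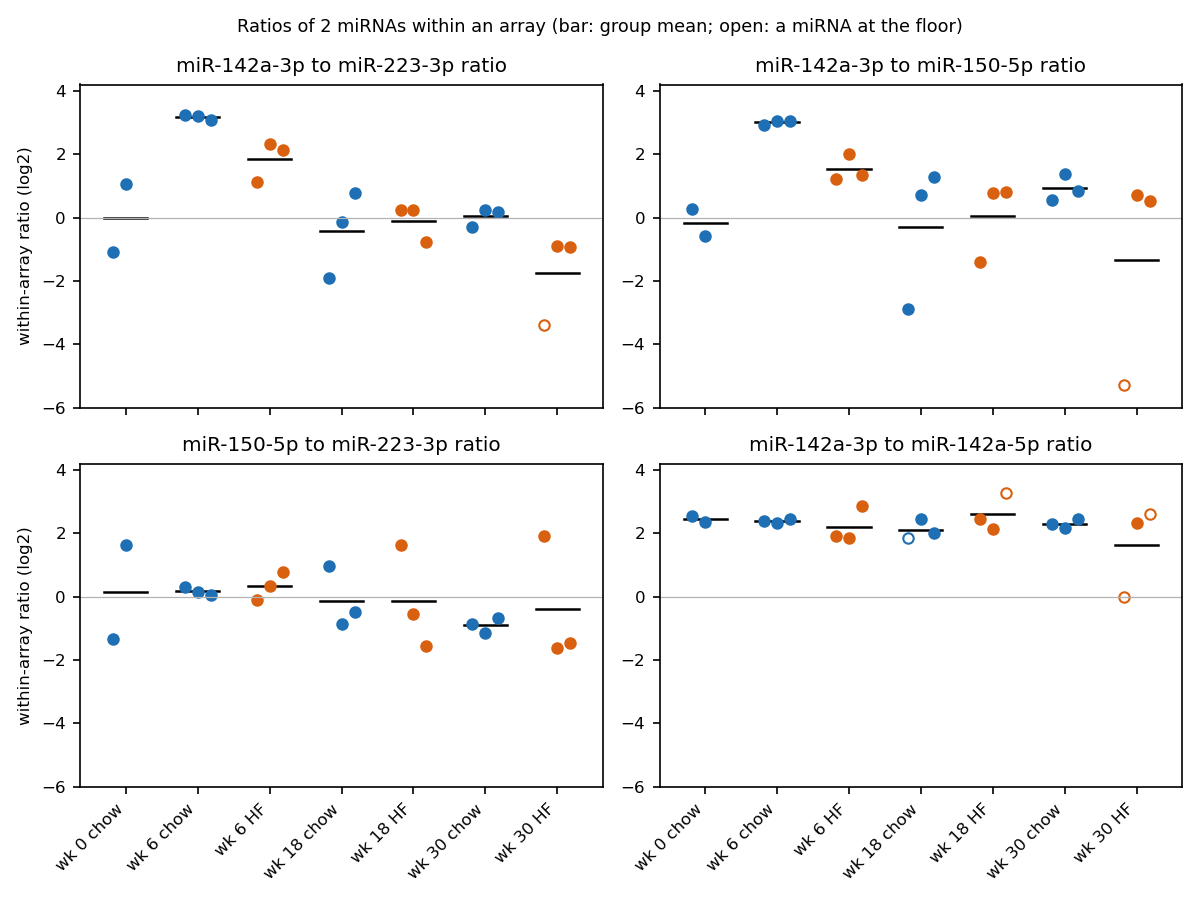
Log2 ratio of one miRNA to another on the same array (vertical axis), by group (horizontal axis), for 4 pairs, blue for chow and orange for high fat, with a bar for each group mean. Open points have a miRNA at the floor. The ratio of miR-142a-3p to miR-223-3p lies at 3.09 to 3.24 at week 6 on chow, above every other array.

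Across all 20 arrays the 2 arms of miR-142a tracked each other most closely of the 6 pairs (Pearson r = 0.96, Spearman rho = 0.97, adjusted permutation p = 6e-05 for each). The correlation was 0.98 within slide 1 and 0.98 within slide 2, 0.99 without the 2 arrays farthest from the median, and 0.88 for deviations from the group means. Arrays share depth and slide, and slide 3 holds 4 arrays, too few for a value of its own. The permutations ran over all 20 arrays whatever their group or slide, so each p also counts shifts shared within a group or slide. miR-150-5p and miR-223-3p, the lymphoid and myeloid miRNAs, correlated at r = 0.74 and rho = 0.66 (adjusted permutation p = 0.000285 and 0.00299), at 0.77 and 0.75 within slides 1 and 2 and at 0.59 without the 2 farthest arrays. Their deviations from the group means correlated at 0.60.

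miR-142a-3p correlated with miR-223-3p at r = 0.80 and rho = 0.80 (adjusted permutation p = 0.00012 and 0.00018), at 0.47 within slide 1, 0.79 within slide 2, 0.72 without the 2 farthest and 0.78 for deviations from the group means. With miR-150-5p it gave r = 0.54 and rho = 0.61 (adjusted permutation p = 0.0129 and 0.00497), at 0.61 and 0.29 within the slides, 0.66 without the 2 farthest and 0.31 for deviations from the group means. miR-142a-5p gave r = 0.64 with miR-150-5p and 0.76 with miR-223-3p (rho 0.62 and 0.75, adjusted permutation p of r 0.00274 and 0.00018, of rho 0.00451 and 0.00056), at 0.55 and 0.37 within slide 1, 0.29 and 0.76 within slide 2, 0.61 and 0.73 without the 2 farthest, and 0.58 and 0.75 for deviations from the group means. Within slide 2 the correlation of either arm with miR-150-5p was weak.

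The closest companions over the 20 arrays differed for each locus, by Pearson r among 608 other miRNAs and as a description. For miR-142a-3p they were miR-142a-5p (0.96) and 2 members of the miR-17 family, miR-20b-5p (0.95) and miR-20a-5p (0.94). Besides its partner arm, miR-142a-5p lay closest to miR-374c-5p (0.92) and miR-20b-5p (0.91). miR-150-5p lay closest to miR-342-3p (0.97), a miRNA abundant in lymphocytes, then to miR-425-5p (0.95) and miR-155-5p (0.92), which activated lymphocytes and macrophages make. miR-223-3p lay closest to miR-361-5p (0.91), miR-1839-3p (0.90) and miR-1839-5p (0.88). The median over all 608 was 0.22 for each arm of miR-142a, -0.07 for miR-150-5p and -0.04 for miR-223-3p.

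Other white cell miRNAs were set beside the 4 as a list of 17, of which 11 were tested. Between weeks 6 and 18 on chow 2 of the 11 fell, miR-181a-5p and miR-181b-5p, where 16.4% of the 609 did. The same 2 rose from week 0 to 6 on chow, where 20.2% rose, and were lower on high fat at week 6, where 2.96% were. Counts as small as 2 of 11 are near the background in both chow steps. The miR-181 family is abundant in thymocytes and regulates T cell receptor signalling. None of the 5 tested myeloid-linked members passed in any comparison, where the share of the 609 was at most 20.4%. The list's median difference from week 6 to 18 was -0.76 on chow and -0.91 on high fat, against -0.16 and -0.12 over all 609. The partner strands of the lineage miRNAs were hardly seen, miR-150-3p being well above background on 4 arrays and miR-223-5p on 0, and neither was tested.

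A list of 5 miRNAs of thymocytes and developing lymphocytes (miR-181a-5p, miR-181b-5p, miR-181a-1-3p, miR-181d-5p and miR-128-3p) was also followed. Its miR-181a-1-3p, was well above background on 3 arrays, all of week 6 chow, so it entered the test only through the group where it is high. The other 4 rose from week 0 to 6 on chow (differences of 1.86 to 3.85), as 20.2% of the 609 did, and fell from week 6 to 18 on chow (-5.06 to -2.55), as 16.4% did. The summed level of all 5 miRNAs, miR-181a-1-3p included, was 7.50 and 8.07 at week 0. On chow it was 10.67 to 11.32 at week 6, 6.65 to 8.19 at week 18 and 6.69 to 7.14 at week 30. At week 6 on high fat this sum was 6.90 to 8.76. The 4 without miR-181a-1-3p were lower there than on chow (-3.70 to -1.67), as 2.96% of the 609 were, whereas miR-142a-3p overlapped between the diets. At weeks 18 and 30 on high fat the sum of all 5 was 6.79 to 7.80 and 6.45 to 7.42. Whether thymocyte RNA was present, and whether it had a part in the chow changes of miR-142a, was not tested.

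Of 4 red cell miRNAs, whose list holds no white cell miRNA, none passed. Their median difference was -1.43 from week 6 to 18 on chow, where 16.4% of the 609 passed, and -1.22 between the diets at week 6, where 2.96% did. Their summed level was 12.50 to 13.11 at week 6 on chow and 9.36 to 12.33 at week 18 on chow, lower on every array there as for miR-142a, and its part was not tested. None of the 3 tested smooth muscle, 2 endothelial or 5 fat-linked miRNAs passed in any comparison of 2 groups. Of 4 tested striated muscle miRNAs 1 rose from week 0 to 6 on chow, where 20.2% of the 609 rose. The share of the 609 that passed was at most 20.4% in any comparison of 2 groups.

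**Figure D4:**
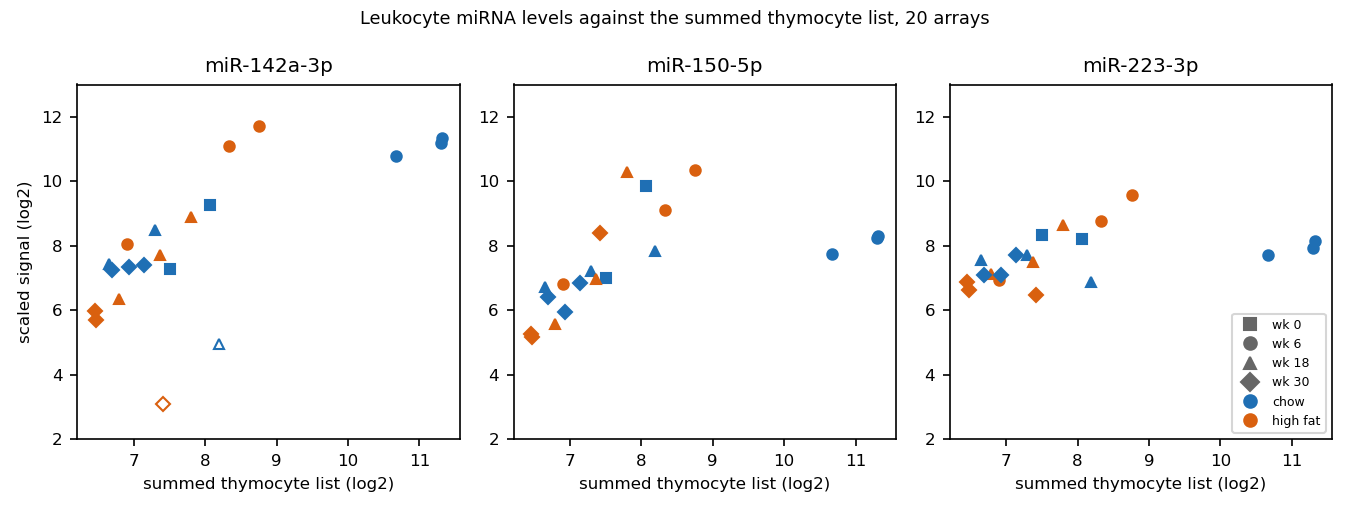
Log2 scaled intensity of miR-142a-3p, miR-150-5p and miR-223-3p (vertical axis, 1 panel each) against the summed level of the 5 thymocyte and developing lymphocyte miRNAs (horizontal axis, log2) on the 20 arrays. Blue is chow, orange is high fat, the shape gives the week, and open points were not well above background. The week 6 chow arrays stand apart at 10.67 to 11.32 in the list and 10.79 to 11.35 in miR-142a-3p, while the week 6 high fat arrays reach 11.70 in miR-142a-3p with the list at 8.76 or less.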

How the data were processed

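Total RNA of ascending aorta was read on 20 Agilent miRNA arrays. The authors deposited spot intensities from Agilent Feature Extraction 11.5.1, with the background subtracted and no scaling between arrays, per the file headers, and the deposited value table held the same intensity, within 0.001 of its value (or 0.001 where that is under 1) for every spot, in all 20 columns. Of the spots, controls and outliers (1370 to 2209 on an array) did not enter, and 0 were saturated. The mean over a probe's spots, then over a miRNA's probes, gave its signal. It was taken as well above background with 0.5 or more of any 1 probe's usable spots so marked. Signals were scaled to the array's 75th percentile, using the 192 miRNAs present on all 20 arrays, then held to a common floor of 3.09 and put on the log2 scale. The number of arrays limits the precision. limma 3.58.1 (R 4.3.3, lmFit and eBayes) fitted 7 group means to 609 miRNAs, each detected throughout 1 group or more, on 13 residual degrees of freedom. Its 2-sided p-values were adjusted over all 609 by Benjamini-Hochberg, with a threshold of 0.05. Ratios were tested by exact 2-sided permutation of arrays within week or diet, adjusted over 16 tests, and correlations by 100000 permutations, adjusted over 6 pairs, with a smallest p of 1e-05. Both procedures were tested on simulated data.

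The alternatives were normexp background (offset 50), other scalings, floors and filters, the median over probes, slide or replicate blocks, only the groups compared, near-identical arrays averaged, the description's slide positions, the value table, and each array left out. Ratios and correlations were run under a part of these. The 4 miRNAs were described in every comparison, and their 3 closest companions were named by Pearson r over the arrays. The 4 miRNAs and all lists were chosen with earlier results of these data known. Sequences come from RefSeq (GRCm38.p6), in which 1608 of the array's miRNAs were found by name.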

Additional observations from a re-analysis of the deposited data

How the results depend on the processing

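Values here are log2 differences unless named otherwise. Of 40 differences of the 4 miRNAs, 34 kept their side of limma's threshold under every alternative and 6 did not. Of the 16 ratio differences, 12 kept it and 4 did not under the 24 alternatives run for ratios. Those were normexp background, the median over probes, the floor lower by 1, the 4 arrays with fewest detected miRNAs left out, and each array left out. Averaged near-identical arrays, the description's slide positions and blocks were not run for the ratios. The 6 correlations kept their sign with no scaling, with quantile normalization and without the 4 arrays with fewest detected miRNAs, the alternatives run for them. The 4 tests of a changing diet effect never passed. None of the 56 differences was past its threshold with the opposite sign under any alternative, though 27 and 7 took the other sign while not past it. The cause of each change was not tested, except where fewer arrays enter. On 4 of 20 arrays miR-142a-5p is at the floor, and values at the floor have no order. The alternatives of the floor higher by 1 and the slide as a random block were chosen after seeing the data. With the slide as a block, the steps from week 6 to 18 could not be fitted. Among the miRNAs detected on all 20 arrays alone, neither arm of miR-142a remains to test. The count of miRNAs past the threshold ranged over the alternatives from 0 to 35 for the diet effect at week 6 (18 as reported), 0 to 124 at week 30 (0), 0 to 17 for its mean (1), 0 to 230 from week 0 to 6 on chow (124), 1 to 153 from week 6 to 18 on chow (100), 0 to 99, 0 to 1 and 0 to 13 for the high fat steps from week 0, 6 and 18 (0 each) and 0 to 18 for the F test (6).

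The replicate numbers did not pair the arrays. Same-numbered arrays of different groups deviated from their group means with a median correlation of 0.016, and 9 of 20 arrays correlated best with one of their own number. With the replicate number as a block, the miR-142a-5p rise from week 0 to 6 on chow was 2.93 (limma adjusted p = 0.0482), and the block changed no other call of the 4.

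The fall of miR-142a-3p from week 6 to 18 on chow was -3.48 with the 75th percentile over all miRNAs, -4.10 with no scaling and -2.84 with groups by the description's slide position, none past the threshold (limma adjusted p = 0.0632, 0.181 and 0.0534). That of miR-142a-5p was -1.89 with normexp background, -3.20 with the 75th percentile over all miRNAs, -3.34 with quantile normalization, -3.19 with no scaling and -3.76 with near-identical arrays averaged (limma adjusted p = 0.0719, 0.0581, 0.0575, 0.220 and 0.0526). The rise from week 0 to 6 on chow passed for miR-142a-3p with normexp background (2.58), only the groups compared (2.85) and without the 4 arrays with fewest detected miRNAs (2.85). For miR-142a-5p it passed with normexp background (2.03), and at 2.91 with the slide as a block, only the groups compared, the floor higher by 1, groups by the description's slide position and without the 4 arrays. With only the groups compared, miR-142a-5p also passed between the diets at week 30 (-1.75, limma adjusted p = 0.0227), and with groups by the description's slide position from week 6 to 18 on high fat (-4.16, limma adjusted p = 0.0388). At week 30 its high fat replicates 1 and 3 are at the floor, which limits the spread of that group. Up to 124 of the 609 passed at week 30 over the alternatives.

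Signs that turned, none of them past the threshold, were these. Without the 4 arrays with fewest detected miRNAs, the week 6 diet effect was -0.13 for miR-150-5p and -0.070 for miR-223-3p, and the mean diet effect of miR-223-3p was -0.058. The step from week 18 to 30 on chow was -0.62 and -0.70 for miR-142a-3p and miR-142a-5p. On high fat, miR-150-5p and miR-223-3p gave -0.46 and -0.42 from week 0 to 6, and 0.65 and 0.22 from week 6 to 18. Without these arrays the ratios of miR-142a-3p to miR-223-3p and to miR-150-5p gave -2.18 and -1.97 between weeks 6 and 18, no longer past the threshold (adjusted exact permutation p = 0.0667), and from week 18 to 30 those of miR-142a-3p to miR-150-5p and to miR-142a-5p were 0.44 and 0.12.

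With normexp background, the week 18 diet effect was -0.071 and -0.61 for miR-142a-3p and miR-142a-5p, that of miR-150-5p at week 30 was 0.12, and the step from week 18 to 30 on chow was -0.40 and -0.75 for the 2 arms. Its ratios gave -0.078 for miR-150-5p to miR-223-3p from week 0 to 6, 0.10 for miR-142a-3p to miR-150-5p from week 18 to 30, and -0.72 and 0.55 for the 2 arms from week 6 to 18 and week 0 to 6. With groups by the description's slide position, the week 18 diet effect was -1.92, -2.04, -1.29 and -0.82 for miR-142a-3p, miR-142a-5p, miR-150-5p and miR-223-3p. The mean diet effect was -0.25 for miR-150-5p and -0.31 for miR-223-3p, the step from week 6 to 18 on chow was 0.051 for miR-223-3p, and both arms gave -0.93 from week 18 to 30 on chow.

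Scaling moved small differences. With the 75th percentile over all miRNAs, the week 18 diet effect was -0.050, -0.15 and -0.13 for miR-142a-5p, miR-150-5p and miR-223-3p, miR-223-3p gave 0.12 from week 6 to 18 and miR-142a-5p -0.13 from week 18 to 30 on chow, and miR-150-5p and miR-223-3p gave -0.63 and -0.81 from week 0 to 6 on high fat. With quantile normalization, miR-142a-5p gave -0.095 for the diet at week 18 and -0.037 from week 18 to 30 on chow, and miR-150-5p and miR-223-3p gave -0.11 and -0.26 from week 0 to 6 on high fat. With no scaling, miR-150-5p and miR-223-3p gave 0.060 and 0.82 from week 18 to 30 on chow, and miR-223-3p gave -0.11 and 0.11 from week 0 to 6 and 6 to 18 on high fat.

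With the slide as a block, the week 30 diet effect was 1.17, 2.93 and 0.33 for miR-142a-5p, miR-150-5p and miR-223-3p, and the mean diet effect 0.028 and 0.56 for miR-142a-3p and miR-142a-5p. From week 18 to 30 on high fat, miR-142a-5p and miR-150-5p gave 0.19 and 0.71. With the block this step is the comparison with week 18 high fat replicate 3 alone. On that array miR-142a-5p is at the floor and the negative control spots are noisy. With near-identical arrays averaged, miR-150-5p differed by 0.40 between the diets at week 30. With the floor higher by 1, miR-142a-5p gave -0.15 from week 18 to 30 on chow, and with the floor lower by 1 the diet difference of the ratio of the 2 arms was 0.00036.

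Leaving out each array in turn, the ends of the ranges were as follows. For miR-142a-3p they were -1.53 to 0.30 and -0.30 to 1.47 for the diet at weeks 6 and 18, -2.93 to -1.49 at week 30, -4.91 to -3.15 from week 6 to 18 on chow and -0.62 to 1.14 from week 18 to 30 on chow. For miR-142a-5p they were -1.21 to 0.34 and -0.69 to 1.16 for the diet at weeks 6 and 18, and 1.81 to 4.01, -4.67 to -2.98 and -0.70 to 1.00 for the chow steps from week 0, 6 and 18. For miR-150-5p they were -0.13 to 1.64, -0.99 to 1.37 and -1.19 to 0.42 for the diet at weeks 6, 18 and 30, -0.15 to 0.64 for its mean, -1.75 to 1.09 from week 0 to 6 on chow, and -1.08 to 1.76 and -2.39 to 0.013 for the high fat steps from week 0 and 18. For miR-223-3p they were -0.070 to 1.26 and -0.079 to 0.69 for the diet at weeks 6 and 18, -0.11 to 0.33 for its mean, -0.34 to 0.076 from week 18 to 30 on chow and -0.42 to 0.91 from week 0 to 6 on high fat.

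Ratios had these ranges with each array left out. miR-142a-3p to miR-223-3p gave -1.17 to -0.65 for the diet and -3.08 to -2.41 from week 6 to 18. miR-142a-3p to miR-150-5p gave -1.57 to -0.48 for the diet, -2.78 to -1.74 from week 6 to 18 and -0.73 to 0.90 from week 18 to 30. miR-150-5p to miR-223-3p gave -0.17 to 0.45 for the diet and -1.47 to 1.50 from week 0 to 6. The 2 arms gave -0.27 to 0.16 for the diet, -0.17 to 0.050, -0.10 to 0.22 and -0.63 to 0.020 from weeks 0, 6 and 18.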
